A study of Arabidopsis thaliana with 18 samples.

Results

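Followed here were transcripts that both compounds raised early in root cultures of Arabidopsis thaliana. A day later their mean lay no more than 2-fold above the solvent level with either compound, and in some cases below it. Of 22746 probe sets (groups of short probes that stand for a gene), 12 met the rule for this pattern. A member had a mean log2 signal at least 2 above acetone at 4 h with both compounds, at most 1 above acetone at 24 h with both, and a mean log2 signal of at least 6 in both treated groups at 4 h. Probe sets whose gene symbol starts with UGT, GSTU, CML or WRKY were to be left out, and none of the probe sets meeting the thresholds had such a symbol. A probe set without a listed gene could not be left out in this way, and 7 of the 12 had none. The members were thus selected on these group means, and every difference from acetone given below for a member is a description and has no test. A difference of 1 on the log2 scale is a change of 2-fold.

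Each culture was wild type of the accession Col-0, kept without light in Gamborg's B5 medium at 25 °C and taken at an age of 14 days. The groups were fenclorim for 4 h, CMP for 4 h and acetone for 4 h, and fenclorim for 24 h, CMP for 24 h and acetone for 24 h, with 3 ATH1 arrays each and 18 arrays in all. Fenclorim, a chlorinated phenylpyrimidine, is a safener, which means that it shields rice from injury by herbicides, and acetone was the solvent. CMP is a code name that the labels do not expand, and the sources used here give no dose for either compound. Replicates carry numbers in the labels without a statement that each was a separate culture, so a p-value here reflects array-to-array spread that may be technical. In such whole cultures, fewer cells of a type and less RNA per cell cannot be told apart.

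Plant cells meet foreign chemicals with enzymes that oxidise, conjugate and export them, and in parallel with general stress genes. Among the general stress genes are small heat shock proteins, which bind proteins as they unfold, and the HSP70 machine, which refolds them or passes them on for degradation. Others encode cytoplasmic receptors of the TIR-NBS class and lectins, both known from the response to microbes. Many early stress transcripts of plants are short lived, so that their level falls again once synthesis slows.

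The platform annotation listed 1 gene for 5 of the 12 members, and the other 7 were not listed, so they are given by their probe set ID. AT5G51440 encodes a small heat shock protein of mitochondria, and Fes1A (AT3G09350) a co-chaperone that exchanges the nucleotide on HSP70. AT3G04210 encodes a protein of the TIR-NBS class of immune receptors, AT3G16530 a legume lectin family protein, and AT5G43450 an oxygenase that uses 2-oxoglutarate and iron and resembles the enzyme that makes ethylene. The 5 loci did not lie beside one another: 526 to 1337 protein-coding genes separated those on the same chromosome in the RefSeq table of assembly TAIR10.1.

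The arrays had been scaled to 1 trimmed mean of 99.95 to 99.96, yet their median signals differed by group. These were 28.2 to 31.0 with fenclorim, 28.0 to 33.2 with CMP and 35.4 to 39.0 with acetone at 4 h, and 27.2 to 31.8 with fenclorim, 32.3 to 35.2 with CMP and 40.4 to 40.9 with acetone at 24 h. The 3′ minus 5′ log2 signal of the GAPDH control, a sign of RNA length, also moved with treatment. It was -0.10 to 0.35 with fenclorim, 0.12 to 0.59 with CMP and 0.88 to 1.04 with acetone at 4 h, and 0.08 to 0.60, 0.65 to 0.76 and 0.93 to 1.11 in the same order of treatments at 24 h. The same measure of the Actin control overlapped between all treatments, at 3.61 to 3.92 with fenclorim, 3.11 to 4.27 with CMP and 3.46 to 4.17 with acetone at 4 h, and 3.48 to 4.28 with fenclorim, 3.11 to 4.23 with CMP and 3.27 to 4.28 with acetone at 24 h. The part of the median signals or of the GAPDH values in the members' values was not tested. Fenclorim 24 h replicate 2 had the highest signal of its group in 10 of 12 members, as described below. Of the marker genes for cell types, 4 could be named on the array. The root hair genes EXPA7 and EXPA18 had median percentiles of 22.8 and 38.0 within the arrays, with low signals of 0.497 to 29.7 and 0.856 to 67.5. Their group means differed between treatments, but at such low signals these differences are uncertain, and they were not tested. EXPA7 averaged -0.34 with fenclorim, 1.16 with CMP and 3.35 with acetone at 4 h, and 2.59 with fenclorim, 2.815 with CMP and 3.498 with acetone at 24 h, as log2 signal. EXPA18 averaged 3.304 with fenclorim, 3.23 with CMP and 4.96 with acetone at 4 h, and 2.51 with fenclorim, 3.57 with CMP and 5.302 with acetone at 24 h. The photosynthesis genes LHCB4.1 and RCA lay at the 99.1 and 98.5 percentile, with signals of 779 to 3468 and 358 to 2761, so leaf-type transcripts were plentiful in cultures labelled root and grown without light. No marker on the lists for stele and endodermis, meristem or uptake channels could be named, so the root label was not checked against them. LHCB4.1 averaged 10.6 with fenclorim, 11.1 with CMP and 11.1 with acetone at 4 h, and 11.2 with fenclorim, 9.99 with CMP and 11.2 with acetone at 24 h as log2 signal. RCA averaged 10.0 with fenclorim, 10.47 with CMP and 11.1 with acetone at 4 h, and 10.7 with fenclorim, 8.90 with CMP and 11.3 with acetone at 24 h, all as log2 signal, and the part of these root hair and photosynthesis transcripts in the members' values was not tested either.

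The transient pattern was the exception among early responders. At 4 h, 300 probe sets were 2 or more above acetone with both compounds at the level the rule asks for, and 289 of them carried none of the 4 excluded symbols. At 24 h, 228 of the 289 were still more than 1 above acetone with both compounds, 42 were at 1 or less with fenclorim alone and 7 with CMP alone, which left the 12. The members' median difference from acetone at 4 h was 2.69 with fenclorim and 3.297 with CMP, beside 3.07 and 3.18 for the other 277 early responders and -0.23 and -0.25 for all 15261 tested probe sets. At 24 h the members stood at -0.02 with fenclorim and 0.65 with CMP, beside 1.85 and 2.53 for the 277. The rule parts the 12 from the 277 by their 24 h values, so nothing is read from this contrast. Just inside the limits, AT5G51440 lay 0.95 above acetone with fenclorim at 24 h, and Fes1A lay 2.16 above acetone with CMP at 4 h. Just outside, AT3G45730 was at 1.05 with fenclorim at 24 h, AT5G59540 was at 1.98 with fenclorim at 4 h, and AT3G57760 missed the level with a mean of 5.11 with fenclorim at 4 h. Single arrays decided the place of 5 members. AT5G51440 left the set without fenclorim 24 h replicate 1 or 3 or acetone 24 h replicate 1, and AT3G04210 without fenclorim 4 h replicate 1 or acetone 4 h replicate 3. Probe set 266752_at left it without fenclorim 24 h replicate 1 or acetone 24 h replicate 1, 267008_at without acetone 24 h replicate 3, and 248486_at without fenclorim 4 h replicate 1 or 2 or CMP 4 h replicate 3.

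**Figure D1:**
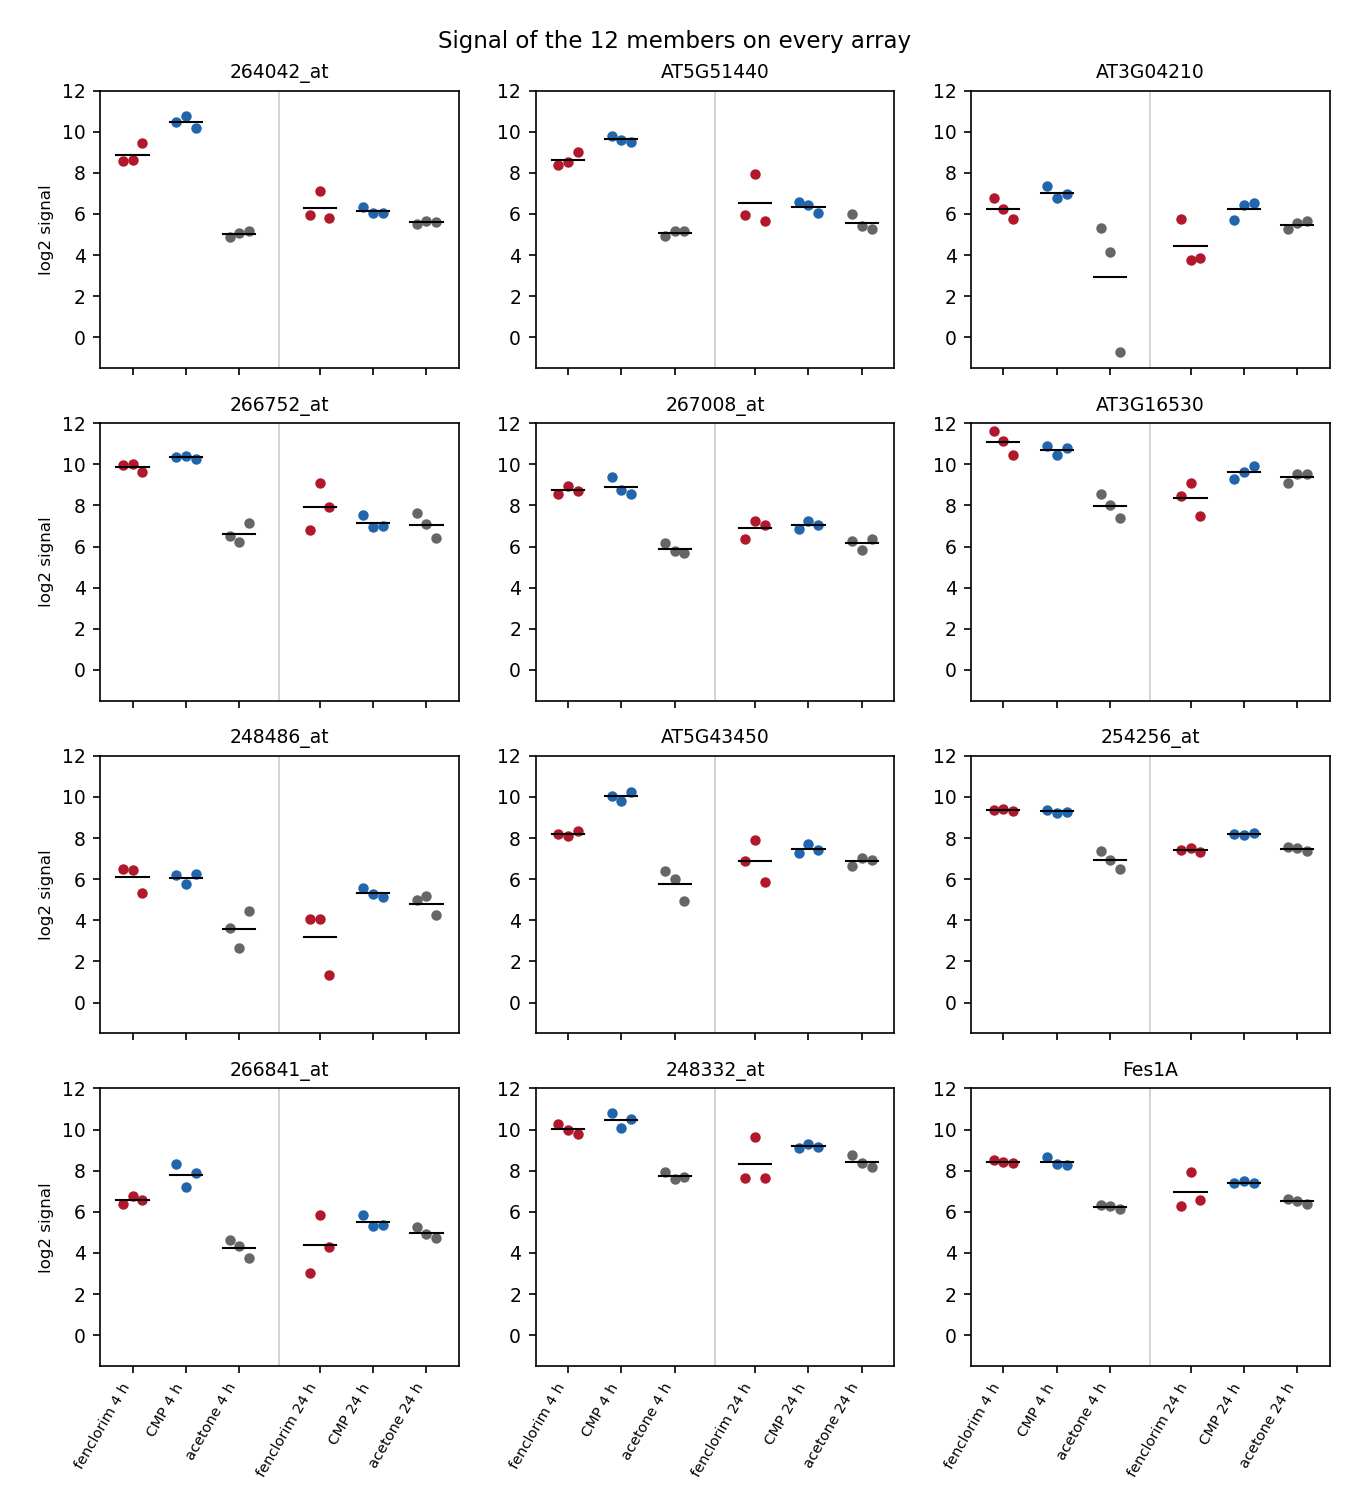
Log2 signal of the 12 members on each of the 18 arrays (points), with 3 arrays per group and the group mean as a bar; fenclorim is red, CMP blue and acetone grey, with 4 h left of the grey line and 24 h right of it. At 4 h every treated array lies above every acetone array in each panel, and at 24 h the fenclorim points scatter most, with a median SD of 1.08 over the members.

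At 4 h all 3 arrays of either compound lay above all 3 acetone arrays in 12 of 12 members. The rule asked for this contrast, so nothing is read from that count. Across all tested probe sets, 14.4% were called higher and 25.0% lower with fenclorim at 4 h, and 13.8% higher and 23.3% lower with CMP (limma, adjusted p under 0.05). All treated arrays lay above all acetone arrays in 17.0% of them with fenclorim and 16.3% with CMP.

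Both chaperone genes among the named members were raised early by both compounds, AT5G51440 by more than Fes1A. What the unlisted members encode was not known here. AT5G51440, the mitochondrial small heat shock protein, had signals of 331, 368 and 523 with fenclorim and 891, 779 and 732 with CMP at 4 h, against 30.7, 35.5 and 35.7 with acetone. The lowest fenclorim array was still far above the highest acetone array, and all CMP arrays were above all fenclorim arrays. The geometric means were 11.8-fold acetone with fenclorim and 23.55-fold with CMP. At 24 h its signals were 61.4, 249 and 50.8 with fenclorim and 94.5, 85.4 and 65.3 with CMP, against 64.5, 43.2 and 38.4 with acetone. One fenclorim array, replicate 2, held most of the remaining difference. Over the other fenclorim arrays the log2 difference from acetone was 0.23, where all 3 gave 0.95.

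Fes1A, the HSP70 co-chaperone, had closely grouped arrays at 4 h. Its signals were 363, 343 and 331 with fenclorim and 407, 317 and 310 with CMP, against 80.2, 78.9 and 71.1 with acetone, or 4.51-fold and 4.47-fold acetone. The treated groups overlapped each other and both stood clear of acetone. At 24 h fenclorim arrays gave 78.3, 248 and 96.7 and CMP arrays 168, 179 and 167, against 97.5, 92.3 and 83.5 with acetone. CMP arrays were thus still all above acetone at 24 h, by 0.91 on the log2 scale, while fenclorim arrays overlapped acetone.

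The list of heat shock proteins and chaperones held 3 further genes that were tested. Hsp70-2, an HSP70 chaperone, rose by 0.81 ± 0.15 with fenclorim and 1.95 ± 0.15 with CMP at 4 h, and by 0.50 ± 0.15 and 1.21 ± 0.15 at 24 h (log2 difference ± SE, n = 3 arrays per group, limma adjusted p = 0.000387, 3.34e-08, 0.0127 and 6.18e-06). AT5G48570, a co-chaperone of the FKBP family of prolyl isomerases, rose by 1.57 ± 0.58 with CMP at 4 h (adjusted p = 0.0409) and fell by 2.01 ± 0.58 with fenclorim at 24 h (adjusted p = 0.0115). ATERDJ3B, a J-domain co-chaperone of the endoplasmic reticulum, rose by 1.08 ± 0.25 with CMP at 24 h (adjusted p = 0.00222) and passed the test in none of the other 3 comparisons with acetone. Over the 3 genes, 1 rose with fenclorim at 4 h and 2 with CMP, and at 24 h 1 rose and 1 fell with fenclorim and 2 rose with CMP.

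AT3G16530 and AT3G04210 are the immunity-related genes among the named members. In AT3G16530, the lectin family gene, fenclorim arrays at 4 h gave 3131, 2281 and 1382 and CMP arrays 1918, 1405 and 1768, against 377, 258 and 167 with acetone. The compounds overlapped and were 8.47-fold and 6.65-fold acetone. A day after treatment fenclorim arrays gave 349, 552 and 182 and CMP arrays 621, 799 and 972, against 545, 728 and 730 with acetone. CMP arrays overlapped acetone arrays at 24 h, all acetone arrays were higher at 24 h than at 4 h, and the mean of the fenclorim arrays was 1.02 below acetone on the log2 scale.

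AT3G04210, the TIR-NBS gene, had low and uneven signals. At 4 h they were 110.9, 74.8 and 53.0 with fenclorim and 162, 110 and 125 with CMP, against 39.4, 17.85 and 0.609 with acetone. The third acetone array was close to no signal and set most of the fold. With all arrays the log2 differences were 3.33 and 4.11, and without acetone 4 h replicate 3 they were 1.52 and 2.297, at which the gene would not have met the rule. At 24 h fenclorim arrays gave 54.7, 13.3 and 14.4 and CMP arrays 52.2, 85.3 and 93.3, against 38.2, 46.7 and 49.8 with acetone.

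AT5G43450, the oxygenase gene, separated the compounds at 4 h. Its signals were 296, 279 and 320 with fenclorim and 1042, 898 and 1228 with CMP, against 85.1, 63.6 and 31.1 with acetone. The lowest CMP array was well above the highest fenclorim array, and the compounds were 5.39-fold and 19.0-fold acetone. In the 24 h samples fenclorim arrays gave 118, 240 and 57.7 and CMP arrays 155, 207 and 172, against 99.6, 132 and 122 with acetone, so fenclorim arrays lay on both sides of acetone and CMP arrays above it.

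Among the members without a listed gene, 264042_at was the most strongly raised of all 12. Its signals at 4 h were 375, 397 and 690 with fenclorim and 1421, 1732 and 1144 with CMP, against 29.7, 34.1 and 35.5 with acetone, which is 14.2-fold and 42.8-fold. At 24 h they were 61.2, 136 and 56.1 with fenclorim and 81.5, 66.1 and 65.7 with CMP, against 45.4, 50.5 and 49.3 with acetone. The fall was steep with both compounds, but every treated array stayed above every acetone array, and this was the sole member for which that held with fenclorim at 24 h.

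Probe set 254256_at had closely grouped treated arrays. At 4 h fenclorim arrays gave 651, 687 and 635 and CMP arrays 660, 601 and 623, against 163, 123 and 91.5 with acetone. At 24 h fenclorim arrays gave 171, 186 and 162 and CMP arrays 291, 284 and 304, against 191, 182 and 163 with acetone. The compounds overlapped at 4 h, and at 24 h the fenclorim arrays lay within the acetone range or next to it while all CMP arrays lay above both.

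Probe set 248486_at had weak signals. Fenclorim arrays gave 91.0, 88.6 and 40.4 and CMP arrays 74.2, 54.9 and 76.5 at 4 h, against 12.4, 6.26 and 22.2 with acetone. With fenclorim for 24 h the arrays gave 17.0, 16.8 and 2.55 and CMP arrays 48.3, 39.3 and 35.2, against 32.0, 36.8 and 19.0 with acetone. All fenclorim arrays were then below all acetone arrays, the sole member with that order, and replicate 3 was far below replicates 1 and 2.

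The remaining 4 unlisted members were 4.82-fold to 9.44-fold acetone with fenclorim and 6.61-fold to 13.2-fold with CMP at 4 h. Probe set 266841_at had signals of 84.3, 110 and 96.8 with fenclorim and 319, 148 and 241 with CMP at 4 h, against 24.6, 20.0 and 13.6 with acetone. All CMP arrays exceeded all fenclorim arrays. At 24 h its fenclorim arrays gave 8.18, 56.7 and 19.5 and its CMP arrays 57.4, 40.1 and 41.3, against 38.9, 30.0 and 26.5 with acetone, so the fenclorim arrays spread from far below acetone to above it.

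Probe set 248332_at had signals of 1247, 1009 and 887 with fenclorim and 1805, 1095 and 1450 with CMP at 4 h, against 247, 195 and 206 with acetone. At 24 h fenclorim arrays gave 201, 790 and 202 and CMP arrays 552, 630 and 565, against 429, 333 and 295 with acetone. Again fenclorim replicate 2 was the high one, and all CMP arrays stayed above acetone.

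Probe set 266752_at had signals of 994, 1040 and 784 with fenclorim and 1313, 1364 and 1228 with CMP at 4 h, against 92.5, 74.5 and 139.7 with acetone. Later, at 24 h, fenclorim arrays gave 109.9, 538 and 239 and CMP arrays 183, 125.6 and 126, against 199, 137 and 86.5 with acetone. Its CMP mean was back within 0.10 of acetone, and its fenclorim mean was 0.86 above.

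Probe set 267008_at had signals of 371, 487 and 423 with fenclorim and 678, 430 and 374 with CMP at 4 h, against 72.1, 55.8 and 50.9 with acetone. At 24 h fenclorim arrays gave 83.0, 151 and 131 and CMP arrays 115, 152 and 133, against 76.2, 57.1 and 83.5 with acetone. It kept a similar difference from acetone with both compounds, 0.73 with fenclorim and 0.89 with CMP.

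**Figure D2:**
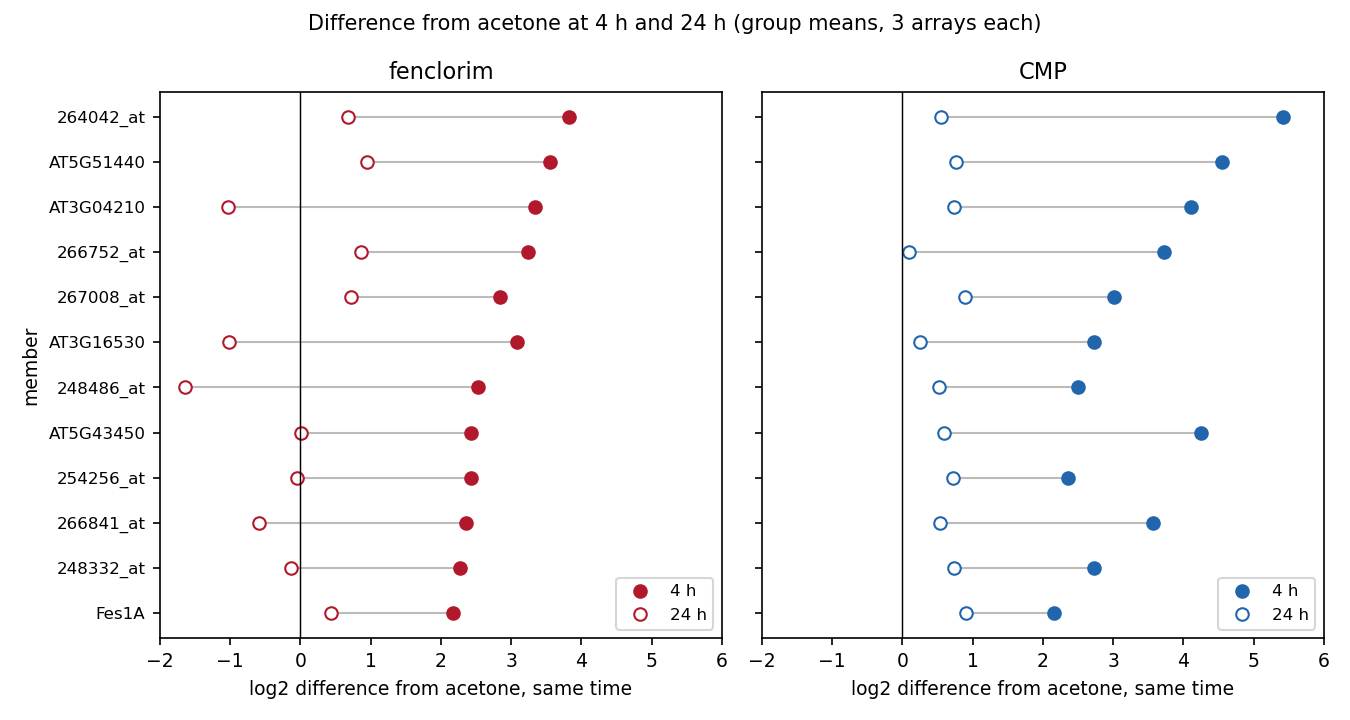
Difference of mean log2 signal from acetone of the same time for each member, with fenclorim left and CMP right, filled circles at 4 h and open circles at 24 h, each from 3 arrays per group. The CMP values at 24 h lie between 0.10 and 0.91, whereas the fenclorim values at 24 h run from -1.65 to 0.95 around a median of -0.02.

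At 24 h the CMP mean was above acetone in 12 of 12 members, by 0.10 to 0.91, and all CMP arrays lay above all acetone arrays in 9, as they did in 26.3% of all tested probe sets. The fenclorim mean was above acetone in 6 and below in 6. All fenclorim arrays lay above acetone in 1 member and below in 1, against 16.6% and 30.5% of all tested probe sets, and the arrays overlapped in 10. By the limma test 17.3% of tested probe sets were called higher and 25.7% lower with CMP at 24 h, and 14.2% higher and 27.7% lower with fenclorim, and since the rule used both contrasts nothing is read from the members' counts. The direction of the fenclorim values also turned on the scaling. After quantile normalization 7 members were above acetone and 5 below, and after centring each array on its median 8 were above and 4 below, with 254256_at above under both and 248332_at above under the centring. Centring moved the median difference from acetone of all tested probe sets from -0.24 to 0.25 with fenclorim at 24 h and from -0.13 to 0.14 with CMP. The members' median fenclorim value at 24 h, -0.02 on the authors' scaling and 0.47 after centring, was above the median of all tested probe sets under both. The rule used this contrast too, so nothing is read from that order.

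The solvent level itself was higher at the later time. The acetone mean was higher at 24 h than at 4 h in 12 of 12 members, by 0.25 to 2.57 with a median of 0.62, and with all 24 h arrays above all 4 h arrays in 8, as in 8.0% of all tested probe sets. The median of all tested probe sets was 0.05, with 56.9% above 0. For the other 277 early responders the median was 0.31, with 78.3% above 0. The largest value, 2.57 in AT3G04210, rested on acetone 4 h replicate 3, and without that array, a setting chosen after the data were seen, it was 0.75 there and the members ran from 0.17 to 1.68 with a median of 0.63. The acetone arrays of both times enter the rule, which favours low acetone values at 4 h and high ones at 24 h, so this is a description. The treated means also enter the rule, which asks for a high value at 4 h and a low one at 24 h, so the 24 h minus 4 h values of the treated groups are largely fixed by the choice of members and nothing is read from them. They had a median of -1.94 with fenclorim (-2.94 to -1.34) and -1.57 with CMP (-4.32 to -0.74). In 264042_at and AT5G51440 the treated level was lowest relative to 4 h with CMP, with differences of -4.32 and -3.305.

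**Figure D3:**
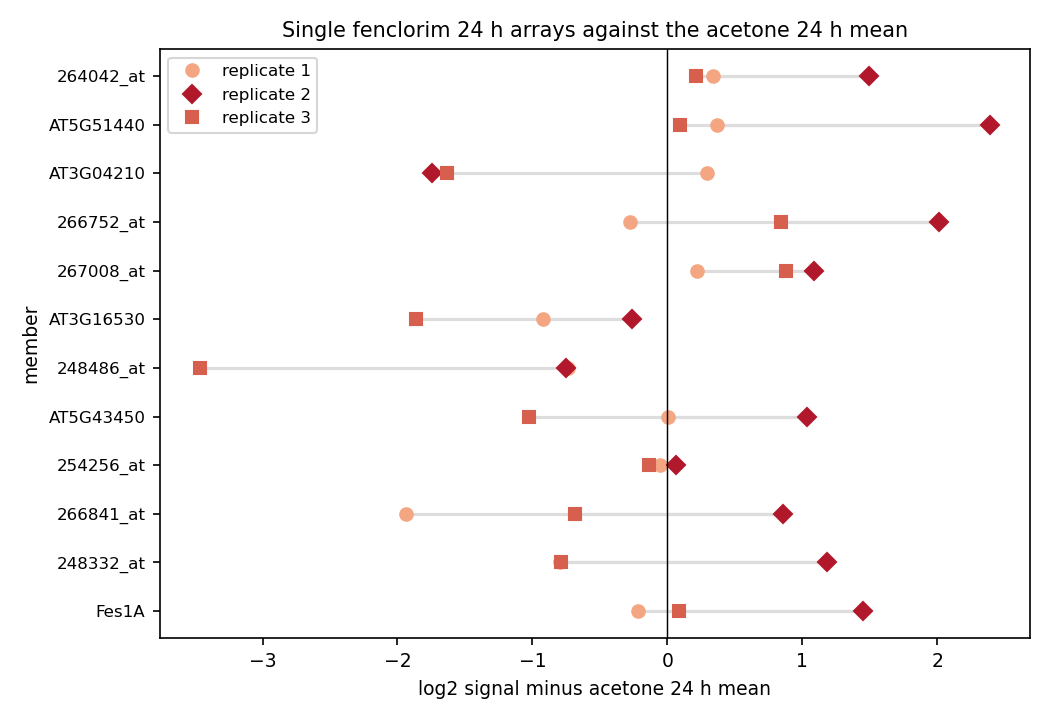
Log2 signal of each fenclorim 24 h array minus the acetone 24 h mean, for each member; circles are replicate 1, diamonds replicate 2 and squares replicate 3, and where markers coincide replicate 3 or 2 covers replicate 1. Replicate 2 is the highest of the 3 in 10 of 12 members and lies more than 1 above the acetone mean in 7.

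The fenclorim group at 24 h was widely spread in most members, and replicate 2 was often its highest array. Fenclorim 24 h replicate 2 had the highest signal of its group in 10 of 12 members, against 43.5% of all tested probe sets, and lay more than 1 above the acetone mean in 7. The median SD of the members was 1.08 with fenclorim, 0.22 with CMP and 0.26 with acetone at 24 h, and 0.23, 0.25 and 0.43 in the same order at 4 h. Without replicate 2, the members' median difference from acetone with fenclorim at 24 h was -0.30 (-2.10 to 0.55), and 8 of 12 were below 0. The rule used the mean of all 3 fenclorim arrays at 24 h. These counts are therefore a description, and nothing is read from them beside the share of all tested probe sets. In AT5G43450 replicate 2 was 1.04 above the acetone mean where replicates 1 and 3 were at 0.01 and -1.02. Other arrays stood apart elsewhere. In 248486_at replicates 1, 2 and 3 were at -0.73, -0.75 and -3.47, and in AT3G04210 they were at 0.29, -1.74 and -1.64. The spiked poly-A controls of replicate 2 averaged 7.21 on the log2 scale, below the 7.83 and 8.04 of replicates 1 and 3. Its array median was the highest of the group, at 31.8 beside 27.2 and 27.9. The GAPDH 3′ minus 5′ value set replicate 3 apart instead, at 0.08 beside 0.60 in replicates 1 and 2. The part of these differences was not tested.

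Whether the compounds differed from each other was tested directly. The rule does not use the difference between them, but it bounds both of their means against acetone. At the earlier time the bound is from below and at the later time from above. The p-values and the shares of members called are therefore not free of the selection of members. Differences are CMP minus fenclorim ± SE on the log2 scale, with n = 3 arrays per group. P-values were adjusted over the 15261 probe sets tested, and 12 pairs of means were compared at each time.

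At 4 h 2 of 12 members passed the test, both higher with CMP. In the background 3.56% of tested probe sets were called higher and 3.77% lower. AT5G43450 was 1.81 ± 0.39 higher with CMP than with fenclorim (limma adjusted p = 0.00836), or 3.52-fold. Probe set 264042_at was 1.59 ± 0.29 higher (adjusted p = 0.00245), or 3.01-fold. CMP arrays were above all fenclorim arrays in both, and both kept their call in all 15 alternatives. In 3 further members the CMP arrays were also above all fenclorim arrays, which makes 5 of 12 beside 12.0% of all tested probe sets. They were AT5G51440 at 1.00 ± 0.41 (adjusted p = 0.171, interval 0.13 to 1.87), 266841_at at 1.22 ± 0.48 (adjusted p = 0.149, interval 0.21 to 2.24) and 266752_at at 0.48 ± 0.42 (adjusted p = 0.577). Without adjustment 4 members had p under 0.05. For Fes1A the difference was -0.01 with a 95% interval of -0.61 to 0.59, and for 254256_at it was -0.07 with an interval of -0.41 to 0.28. Differences of the size seen in AT5G43450 lie outside both intervals, though neither shows that the compounds act alike. For AT3G04210 the interval ran from -1.33 to 2.88 and settles little.

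At 24 h 3 of 12 members passed, all higher with CMP, where 17.2% of tested probe sets were called higher and 13.7% lower. Probe set 248486_at was 2.18 ± 0.60 higher with CMP than with fenclorim (limma adjusted p = 0.0124). AT3G16530 was 1.26 ± 0.37 higher (adjusted p = 0.0168), and 254256_at was 0.76 ± 0.16 higher (adjusted p = 0.00292). In these 3 all CMP arrays lay above all fenclorim arrays, as in 22.4% of all tested probe sets, and in the other 9 the arrays overlapped. The rule bounds both treated means from above at this time, so nothing is read from the share called, 3 of 12, beside the background. Which members passed depended on single arrays. Without fenclorim 24 h replicate 2 there were 7 called, with AT5G43450 at 1.0996, 266841_at at 1.85, 248332_at at 1.53 and Fes1A at 0.98 added. Without fenclorim 24 h replicate 3, whose signals were the lowest in AT3G16530 and 248486_at, 254256_at alone was called, and those other two fell to 0.84 and 1.27 (adjusted p = 0.0937 and 0.0563). AT3G16530 also lost its call without CMP 24 h replicate 3 (adjusted p = 0.0664), and without fenclorim 24 h replicate 1 266752_at was called, lower with CMP by -1.33 (adjusted p = 0.0174).

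**Figure D4:**
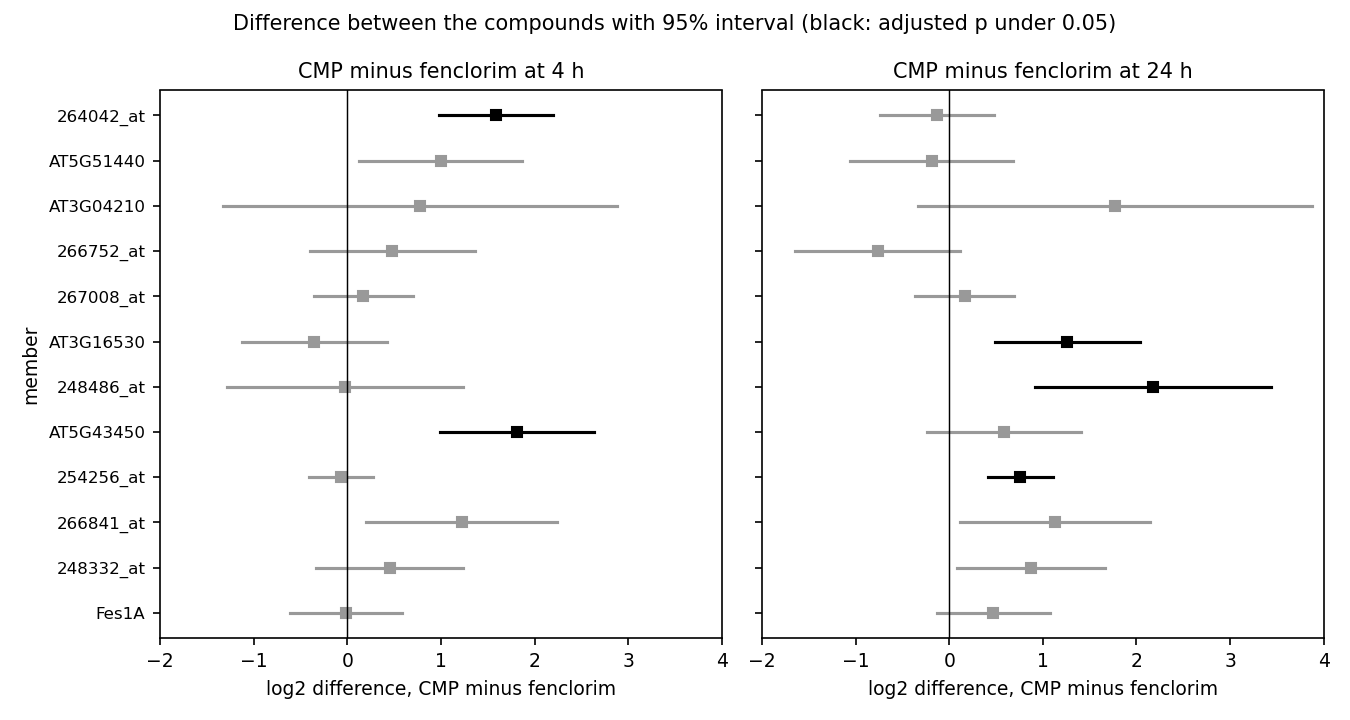
CMP minus fenclorim difference of mean log2 signal for each member, at 4 h left and at 24 h right, with 95% intervals from the fit over 18 arrays; black marks an adjusted p under 0.05. At 4 h 264042_at and AT5G43450 are black, and at 24 h AT3G16530, 248486_at and 254256_at.

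A change between the times in the difference between the compounds was called in 2 of 12 members, where 1.82% of tested probe sets were called in the positive and 3.09% in the negative direction. The rule bounds the treated means in this term, at 4 h from below and at 24 h from above. These calls are therefore not free of the selection of members. In 264042_at CMP minus fenclorim was 1.59 at 4 h and -0.13 at 24 h, a change of -1.73 ± 0.41 (limma adjusted p = 0.0252). In 254256_at it was -0.07 at 4 h and 0.76 at 24 h, a change of 0.83 ± 0.23 (adjusted p = 0.0498). For AT5G43450 the change was -1.23 ± 0.55 (adjusted p = 0.199), so its excess at 4 h was not shown to differ from the 0.59 ± 0.39 at 24 h. For AT3G16530 it was 1.61 ± 0.52 (adjusted p = 0.0816). Leaving out 1 array could end either call, for instance CMP 4 h replicate 1, and without fenclorim 24 h replicate 2 there were 6 calls.

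The members were read beside other stress genes from 20 lists. These held 690 symbols, of which 49 loci could be named on the array and 35 were tested and were no members. With fenclorim 14 of the 35 rose and 5 fell at 4 h, where 14.4% of all tested probe sets were called higher and 25.0% lower, and 11 rose and 8 fell at 24 h, where 14.2% were called higher and 27.7% lower. With CMP 18 rose and 4 fell at 4 h, beside 13.8% and 23.3%, and 14 rose and 3 fell at 24 h, beside 17.3% and 25.7%. The same shares stand behind the counts of single lists. The lists were drawn up with earlier results of these data known, so nothing is read from the counts beside these shares. After centring of the arrays the fenclorim counts were 16 up and 2 down at 4 h, and 14 up and 5 down at 24 h, and the CMP counts 19 up and 3 down at 4 h, and 20 up and 3 down at 24 h. After quantile normalization they were 14 up and 4 down at 4 h and 10 up and 5 down at 24 h with fenclorim, and 18 up and 3 down at 4 h and 17 up and 3 down at 24 h with CMP. Fenclorim and CMP share the acetone arrays, so these counts are not independent of each other. Centring also turned the balance of all calls. The share of higher among the called probe sets with fenclorim was 36.5% at 4 h and 33.8% at 24 h on the authors' scaling, 46.9% and 50.7% after quantile normalization, and 66.3% and 74.5% after centring. With CMP it was 37.2% at 4 h and 40.2% at 24 h on the authors' scaling and 64.9% and 61.3% after centring. For CMP against fenclorim at 24 h it was 55.7% on the authors' scaling and 35.8% after centring.

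Several listed genes were called higher at both times, from the auxin and wall lists as well as those detailed below. Over the 4 comparisons with acetone GH3.3 rose by 1.86 to 3.39, CHI by 1.19 to 3.32 and CCOAMT by 1.56 to 3.99. Others were called lower, such as IAA29 and COR47 with fenclorim and HCT with CMP at both times, and GH3.17 with both compounds at 4 h. EFR, the receptor kinase that senses bacterial elongation factor Tu, rose by 2.197 ± 0.31 with fenclorim and 2.41 ± 0.31 with CMP at 4 h, and by 1.29 ± 0.31 and 1.297 ± 0.31 at 24 h (limma adjusted p = 3.2e-05, 1.17e-05, 0.00363 and 0.00249). BIK1, a kinase acting with such receptors, rose in the same 4 comparisons by 0.51 to 0.98, so 2 of the 3 tested receptor kinase genes rose in each. Of the 4 tested ubiquitin ligases of the stress response, 2 rose with fenclorim and 3 with CMP at 4 h, and at 24 h 2 rose and 1 fell with fenclorim and 2 rose with CMP. PUB24, a U-box ligase that dampens immune signalling, rose by 1.99 ± 0.17 with fenclorim and 2.08 ± 0.17 with CMP at 4 h, and by 0.96 ± 0.17 and 1.97 ± 0.17 at 24 h (adjusted p = 1.14e-07, 5.82e-08, 0.000325 and 1.8e-07). Its relative PUB23 rose by 0.70 ± 0.25 with fenclorim at 4 h and fell by 0.72 ± 0.25 at 24 h, and it rose by 1.66 ± 0.25 with CMP at 4 h (adjusted p = 0.0346, 0.0288 and 6.89e-05). RING1, a RING-type ligase, rose by 1.55 ± 0.38 with CMP at 4 h, and by 1.90 ± 0.38 with fenclorim and 1.63 ± 0.38 with CMP at 24 h (adjusted p = 0.00427, 0.00108 and 0.0023). No comparison with acetone called the fourth ligase, PUB22. STZ, a zinc finger repressor of stress genes, rose by 2.53 ± 0.18 with fenclorim and 3.31 ± 0.18 with CMP at 4 h, and by 1.62 ± 0.18 and 2.09 ± 0.18 at 24 h (adjusted p = 1.56e-08, 7.84e-10, 4.74e-06 and 1.85e-07).

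Among 3 tested genes of mitochondrial stress and oxidases, NDB2, an alternative NADH dehydrogenase of the inner membrane, rose by 3.80 ± 0.26 with fenclorim and 2.97 ± 0.26 with CMP at 4 h, and by 1.81 ± 0.26 and 1.05 ± 0.26 at 24 h (limma adjusted p = 1.24e-08, 1.76e-07, 6.5e-05 and 0.00334). Its relative NDB1 fell in all 4 comparisons, by 0.56 to 1.09. NDC1, a further alternative NADH dehydrogenase, fell by 0.66 ± 0.19 with fenclorim at 4 h (adjusted p = 0.0108) and was not called in the other 3 comparisons. Of the 3 genes, 1 rose and 2 fell with fenclorim at 4 h, and 1 rose and 1 fell in each other comparison. The mitochondrial chaperone gene AT5G51440, beside them, was 0.95 above acetone with fenclorim and 0.77 with CMP at 24 h. Of the 2 tested glutamate receptor-like channel genes, GLR2.8 rose by 1.96 ± 0.61 with fenclorim and 2.92 ± 0.61 with CMP at 4 h and by 1.92 ± 0.61 with CMP at 24 h (adjusted p = 0.0176, 0.00132 and 0.0175), and GLR2.7 rose by 1.73 ± 0.40 with CMP at 4 h and fell by 3.46 ± 0.40 with fenclorim at 24 h (adjusted p = 0.00292 and 9.1e-06). SAG101, a partner of EDS1 in TIR-NBS immunity, rose by 1.54 ± 0.41 with CMP at 4 h (adjusted p = 0.00701). Its other differences, 0.09 with fenclorim at 4 h, 0.07 with fenclorim at 24 h and 0.84 with CMP at 24 h, did not pass the test.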

How the data were processed

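Total RNA of 18 samples was hybridised to ATH1 arrays, 1 sample per array. The authors deposited linear intensity signals, made with MAS5 in GCOS per the submitters' processing notes, with software version and scaling target not given in the sources used here. Very low signals (lowest 0.0102) give large, uncertain fold changes. Groups came from the labels. The authors' scaling was kept and log2 taken. The table held 22810 probe sets, and 64 controls were left out. The filter asked for a signal above the array's 40th percentile on 3 or more of the 18 arrays, which kept 15261 probe sets and all 12 members. Group means were fitted with limma 3.58.1 (R 4.3.3), with an intensity trend and Benjamini-Hochberg adjustment over the tested probe sets, called at adjusted p under 0.05, and the fit was checked on simulated data. Python 3.11.15 made the other tables with numpy 2.4.6 and pandas 2.3.3, and matplotlib 3.10.9 the figures.

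In the platform annotation, 13513 of 22746 probe sets have 1 gene, 503 several, and 8730 do not appear. The naming rule asked for all named members by array, and the 7 unlisted ones were added. Members and gene lists were chosen with earlier results of these data known. Alternatives were quantile normalization, median centring, no filter, offsets, other thresholds, no trend, a replicate block, only the groups compared, and leaving out arrays. An offset of 16 signal units and the leaving out of 3 arrays together were chosen after the data were seen. Promoter and protein sequences were not used here.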

Additional observations from a re-analysis of the deposited data

Results flagged for a closer look

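In 2 members the difference between the compounds itself changed between the times, by the interaction term of the limma fit. The rule used the treated means of both times that form this term, so the calls are not free of the selection of members. For 264042_at, CMP minus fenclorim changed by -1.73 ± 0.41 from 4 h to 24 h (log2, n = 3 arrays per group, adjusted p = 0.0252), with all 3 CMP arrays above all fenclorim arrays at 4 h. Over 21 alternatives it stayed between -2.004 and -1.32 with adjusted p of 0.000888 to 0.0845, and in 7 of them it was no longer called. For 254256_at the change was 0.83 ± 0.23 (adjusted p = 0.0498), with all 3 CMP arrays above all fenclorim arrays at 24 h. Over 21 alternatives it stayed between 0.65 and 0.88 with adjusted p of 0.0227 to 0.127, and in 15 of them it was no longer called. Leaving out any 1 of fenclorim 4 h replicates 1 and 2, CMP 4 h replicates 1 and 2 or CMP 24 h replicates 2 and 3 ended both calls. A further 3 of the 12 members had an unadjusted p under 0.05 for this term.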

How the results depend on the processing

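The number of members, 12, was 10 after quantile normalization (8 shared), 9 after median centring (5 shared), 13 with an offset of 16 signal units (8 shared) and 10 to 16 without single arrays, and 7 members were kept in all 18 such repeats. A 4 h limit of 1.5 gave 30, and a 24 h limit of 0.5 gave 1, AT3G16530. CMP minus fenclorim calls numbered 2 at 4 h, and 4 both with only the groups compared and with 3 arrays left out together (fenclorim 24 h replicate 2, fenclorim 4 h replicate 3 and CMP 4 h replicate 2). At 24 h they numbered 3, with 1 from only the groups compared, 7 with the 3 arrays left out, and 1 to 7 without single arrays. For the change between times they numbered 2, with 1 each under quantile normalization, median centring, no filter, no intensity trend, only the groups compared and the replicate block, 6 with the 3 arrays left out, and 0 to 6 without single arrays. The cause was not tested. With the replicate block the calls were 2 at 4 h, 3 at 24 h and 1 for the change. Deviations of same-numbered arrays correlated at -0.33 to 0.31, so the numbers were not taken to pair arrays. No member reversed a called difference. With 3 arrays per group and low signals in AT3G04210 and 248486_at, half-widths of the 95% intervals ran from 0.35 to 2.105.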
